A study of Homo sapiens with 24 samples.

Results

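The 7 genes described here are ZNF528, ZNF528-AS1, ZNF667, ZNF229, ZNF560, ZNF595 and ZNF501, out of 60671 genes counted in each table of the series. They were chosen by their values: each had next to no counts in the 3 libraries of primed H9 cells and was expressed in the 3 libraries of naive H9 cells. Naive and primed H9 values are therefore given as a description only, without a test. The rule used no H1 value, and the tests below are within H1.

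Zinc finger proteins of the C2H2 type read DNA through strings of short zinc-binding fingers, and most human ones carry a KRAB domain that recruits the corepressor KAP1 (TRIM28) and, through it, histone methylation and lasting silencing, chiefly at transposable elements. Their genes lie in clusters, many on chromosome 19, and in human pluripotent cells a number of them differ in activity between the naive state, which resembles the epiblast before implantation and has low DNA methylation, and the primed state, which resembles the epiblast after it. ZNF528, ZNF667, ZNF229, ZNF560 and ZNF595 encode KRAB zinc finger proteins, ZNF501 encodes a C2H2 zinc finger protein, and ZNF528-AS1 is a noncoding RNA that starts beside ZNF528 and is transcribed away from it. ZNF667 is the human counterpart of the rat gene Mipu1 and acts as a transcriptional repressor.

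Polyadenylated RNA was sequenced in 24 libraries of 2 established human embryonic stem cell lines, in 8 groups of 3. The 18 H1 libraries all came from cells given doxycycline. In the primed state they carried a CARHSP1 knockdown or a nontargeting control, in the naive state a ZNF8 knockdown or a nontargeting control, and on day 2 of differentiation to ectoderm a ZIC2 knockdown or a nontargeting control. For the 6 H9 libraries, from primed or naive cells, the labels list neither a knockdown nor doxycycline. How the knockdowns were made, whether a line was a single clone and whether the 3 libraries of a group were separate cultures is not stated by the labels. The p-values therefore cover no more than the spread between libraries, possibly a technical one. The H1 and H9 libraries stand in separate tables, so cell line, doxycycline, nontargeting construct and experiment cannot be told apart wherever H1 is set beside H9.

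Total counts ran from 6756704 to 20773963 per library, and levels are CPM, counts relative to library size, scaled by TMM over all 24 libraries together. The summed level of 14 naive markers was 1350 to 1390 CPM in naive H1 controls, 871 to 890 CPM with the ZNF8 knockdown and 481 to 500 CPM in naive H9, against 40.3 to 45.9 CPM in primed H9 and 57.9 to 69.1 CPM in primed H1 controls. KLF17, a defining naive marker, was at 10.8 CPM in naive H1 controls but at 0.0680 CPM in naive H9, so the naive H9 libraries carry only part of that marker set. Of the targeted genes, CARHSP1 was at 19.2 ± 1.47 CPM against 149 ± 2.45 in its control and ZIC2 at 267 ± 4.19 against 556 ± 61.8 (SD, n = 3), while ZNF8 was at 16.3 ± 1.31 against 20.1 ± 3.04 CPM and missed the threshold (edgeR adjusted p = 0.0664). All ZNF8 knockdown libraries lay below all their controls for ZNF8 (log2 change −0.32 ± 0.13 SE). The knockdown labelled ZNF8 is still set by its label, as the fall of its target did not pass the test.

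Promoter sequences are shown first because the 7 genes differ in how rich they are in CG dinucleotides, the main site of DNA methylation. All 7 genes had a start site window in RefSeq (GRCh38.p14) of 300 bases, 250 before and 50 after the start, and ZNF229 had 2 windows. ZNF528 (chr19:52397849-52418412, plus strand) and ZNF528-AS1 (chr19:52388842-52397766, minus strand) are divergent neighbours, and the first stretch below is all that lies between their RefSeq starts. The ZNF667 stretch lies before the RefSeq start of the member richest in CG. GENCODE 29 places the start of ZNF667 further upstream, at 56478065, so this stretch lies inside the gene in that annotation. The ZNF560 stretch lies before the gene that was high in naive H9 alone, and the ZNF595 stretch before the member poorest in CG. Each stretch reads 5′ to 3′ in the direction of the named gene, and capitals mark CG dinucleotides.

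The stretch of 91 bases between ZNF528 and ZNF528-AS1, which holds 12 CG, is at chr19:52397758-52397848 on the plus strand. The stretch of 221 bases before the RefSeq start of ZNF667, with 30 CG, is at chr19:56477375-56477595 on the minus strand. For ZNF560, 250 bases with 14 CG are shown, at chr19:9498617-9498866 on the minus strand, and for ZNF595, 214 bases with 7 CG, at chr4:53071-53284 on the plus strand.
ZNF528 and ZNF528-AS1: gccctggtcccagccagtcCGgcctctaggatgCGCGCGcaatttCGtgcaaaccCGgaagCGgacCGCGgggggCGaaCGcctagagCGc
ZNF667: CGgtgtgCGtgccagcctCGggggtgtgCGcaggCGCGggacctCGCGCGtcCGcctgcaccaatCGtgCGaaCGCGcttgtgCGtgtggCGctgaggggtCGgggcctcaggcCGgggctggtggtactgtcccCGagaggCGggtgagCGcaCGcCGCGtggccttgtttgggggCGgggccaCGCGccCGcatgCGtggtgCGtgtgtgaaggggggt
ZNF560: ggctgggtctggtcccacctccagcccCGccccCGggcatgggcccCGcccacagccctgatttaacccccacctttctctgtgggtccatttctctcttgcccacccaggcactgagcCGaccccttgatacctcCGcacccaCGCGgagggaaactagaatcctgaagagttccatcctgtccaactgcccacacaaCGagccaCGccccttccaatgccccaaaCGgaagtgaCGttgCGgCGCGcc
ZNF595: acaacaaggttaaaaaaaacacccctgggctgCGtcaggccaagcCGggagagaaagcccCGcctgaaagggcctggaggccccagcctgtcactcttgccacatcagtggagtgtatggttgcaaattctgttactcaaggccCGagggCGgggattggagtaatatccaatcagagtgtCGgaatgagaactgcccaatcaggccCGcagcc

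Over the whole 300-base window, ZNF667 held 42 CG, a number that 94.2% of 35116 RefSeq promoters fell short of, and ZNF595 held 12, more than 46.9% of them. ZNF528 and ZNF501 held 27 each, ZNF528-AS1 26, ZNF229 23 and 15 in its 2 windows, and ZNF560 16. The median over the 8 windows was 24.5, beside 22 over 549 promoters of other genes with a ZNF symbol and 14 over all promoters, so the median of the 7 genes lay nearer to that of other ZNF promoters than to that of all promoters. The letters CCGGAAG, searched on both strands, were in the windows of 3 members, namely ZNF528 and ZNF528-AS1, whose windows overlap, and ZNF595. They were in 34.4% of other ZNF promoters and in 10.3% of all promoters. TATAAA was in 1 member, in the second window of ZNF229, against 4.01% of other ZNF promoters and 11.5% of all, and the longer NRF1 and YY1 consensus letters were in no member window (1.24% and 0.849% of all promoters).

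In primed H9 cells the 7 genes were at or next to 0 in every library. ZNF229, ZNF595 and ZNF667 had 0 counts in all 3 libraries, ZNF528-AS1, ZNF560 and ZNF501 had 1 count each over the 3, and ZNF528 had 2. The 7 genes together had 5 counts there, against 3613 in naive H9 and 2045 in primed H1 controls. Since 3 counts over the primed H9 group correspond to 0.0766 CPM, this is the level below which a gene with 0 counts could not be told from absent at this depth.

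Naive H9 cells held all 7 genes at 11.1 to 28.3 CPM on average. ZNF560 was at 27.8, 25.2 and 32.0 CPM (mean 28.3 ± 3.45, SD, n = 3), and ZNF528 at 24.5, 25.3 and 25.9 CPM. ZNF528-AS1 was at 18.1, 15.3 and 14.9 CPM. The replicate libraries of each lay close together, all far above the primed ones. ZNF229 was at 12.4, 11.1 and 14.4 CPM, ZNF595 at 11.5, 11.1 and 12.2, ZNF501 at 10.8, 12.1 and 10.6, and ZNF667 at 12.3, 8.57 and 12.5. ZNF667 had the widest spread of the 4 relative to its mean, with replicate 2 as its lowest library. All 7 genes had every naive library above every primed one, as had 28.8% of the 15761 genes tested in H9, a count that the choice of genes fixed.

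Against the floor of 3 counts, naive H9 levels were at least 165-fold higher for ZNF229, at least 151-fold higher for ZNF595 and at least 146-fold higher for ZNF667. For the 4 genes with 1 or 2 primed counts, the naive to primed ratio of summed counts, each over the summed library size, was 1115 for ZNF560 (95% exact interval 200 to 44093), 633 for ZNF528-AS1 (113 to 25068), 494 for ZNF528 (136 to 4084) and 436 for ZNF501 (77.8 to 17277). The intervals cover counting error only, and within each the lower bound is the informative end. Markers of other cell types differed between the H9 states as well. Of 10 trophoblast and amnion markers 2 reached 1 CPM in primed and 4 in naive H9 (summed level 52.2 to 62.1 against 9.85 to 14.9 CPM), mostly GABRP at 43.9 CPM in primed H9, with CGA at 0 in both. Of 8 fibroblast markers 4 reached 1 CPM in primed and 3 in naive H9 (400.1 to 492 against 179.5 to 206 CPM), with LUM and DCN at 0 in both. COL1A1 (180 against 38.5 CPM) and THY1 (142 against 27.4), which also marks the primed state, were higher in primed H9. COL1A2 was lower there (102 against 126). The part of these markers of other cell types in the levels of the 7 genes was not tested. In bulk RNA, fewer expressing cells and less RNA per cell cannot be told apart, and this holds for each level given here.

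**Figure D1:**
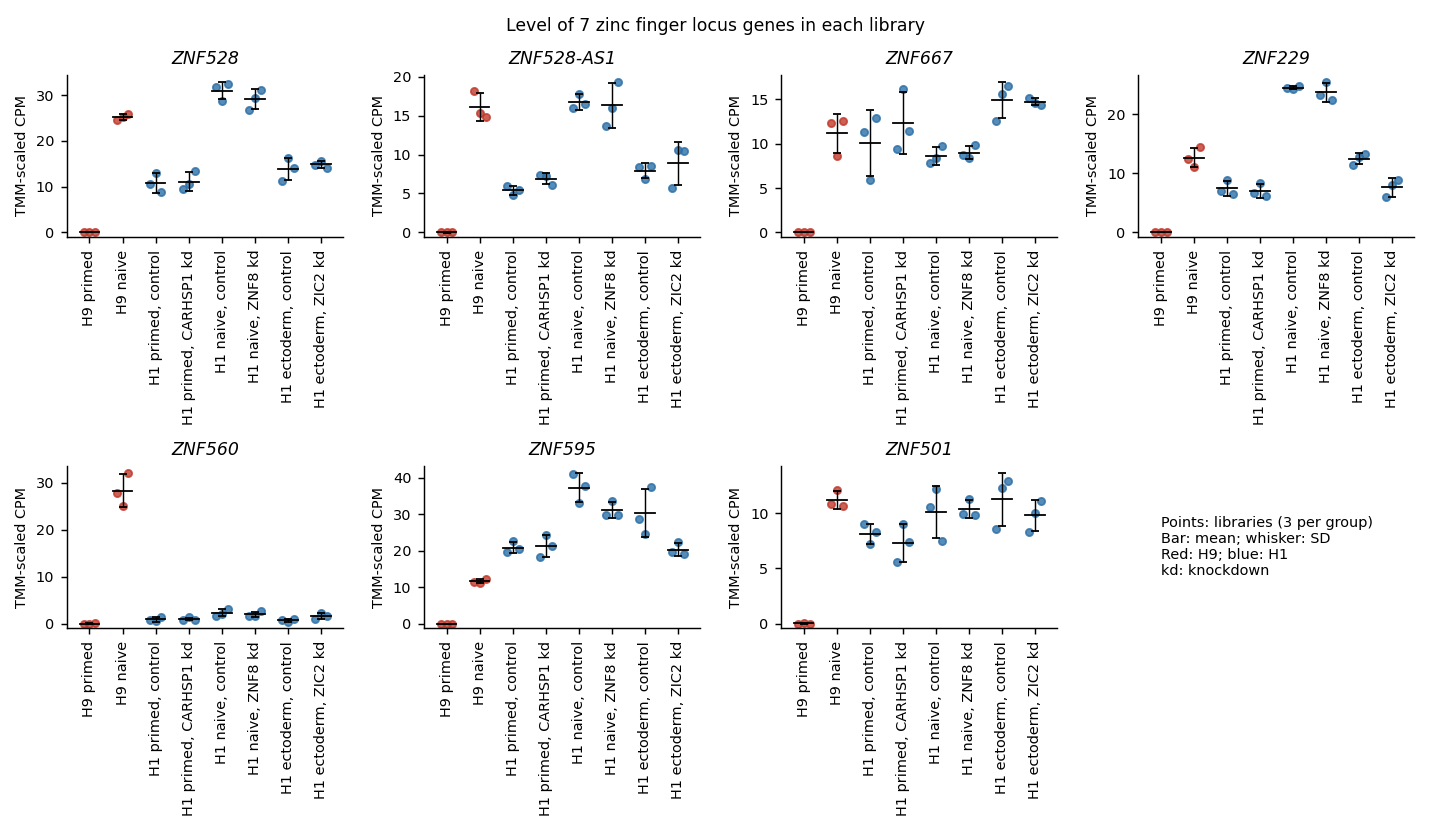
Level of each of the 7 genes in every library, in TMM-scaled CPM on a linear axis that differs between panels, by line and state; points are libraries (3 per group, red H9, blue H1), the bar is the mean and the whisker the SD. Primed H9 lies at 0 to 2 counts for every gene, whereas primed H1 controls lie between a mean of 0.960 CPM for ZNF560 and 20.8 CPM for ZNF595.

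A search of all genes by the same H9 values describes how many others shared the pattern. The place of the 7 genes in it was fixed by their choice. With at most 1 count in every primed H9 library and a mean of at least 10 CPM in naive H9, 10 genes were found among all 60671, of which 7 are the genes described here. The cut lies just under the lowest of them, ZNF667 at 11.1 CPM, and lower cuts give more genes. The other 3 were HORMAD1, which encodes a protein of the meiotic chromosome axis, ATP6V0D2, a subunit of the vacuolar proton pump, and ENSG00000248347, which has no symbol in the table used. Those 3 had at most 1 count per library in primed H1 controls as well, whereas 6 of the 10 genes reached 5 CPM there, all of them described here. ZNF560, at 0.960 CPM in primed H1 controls, was the only one of the 10 between these levels.

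Lowering the naive H9 minimum to 5 CPM gave 24 genes, of which 12 reached 1 CPM in primed H1 controls. Besides 6 of the genes described here these were ZNF667-AS1 (10.3 CPM in primed H1 controls), the chemokine gene CCL28 (4.56), the quinone reductase gene CRYZ (31.3), the pseudogene FRG1CP (10.4), IRAK4, a kinase of Toll-like receptor signalling (10.7), and the noncoding RNA LINC01508 (1.66). At a minimum of 1 CPM there were 78 genes, 19 of them with a ZNF symbol. Just outside the chosen genes, with 0 counts in primed H9, were ZNF471 (5.80 CPM in naive H9), ZNF572 (5.62) and ZNF492 (5.45), beside 11.1 CPM for ZNF667, the lowest of the 7. These 3 were low in primed H1 controls too, at 0.754, 0.262 and 0 CPM.

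Primed H1 controls expressed 6 of the 7 genes at 0.336 to 1.79 times their naive H9 level, and all 7 above primed H9. As a share of the naive H9 mean, the primed H1 control mean was 1.79 times for ZNF595, 0.900 for ZNF667, 0.729 for ZNF501, 0.588 for ZNF229, 0.429 for ZNF528 and 0.336 for ZNF528-AS1. ZNF560 was the exception at 0.0339 times. Primed H1 controls exceeded the primed H9 floor at least 271-fold for ZNF595, at least 131-fold for ZNF667 and at least 97.1-fold for ZNF229. Naive H1 controls stood at 3.21 times naive H9 for ZNF595, 1.93 for ZNF229, 1.23 for ZNF528, 1.04 for ZNF528-AS1, 0.903 for ZNF501 and 0.776 for ZNF667, and at 0.0817 times for ZNF560. ZNF560 was therefore high in naive H9 alone, and its next highest group was naive H1 controls at 2.31 ± 0.722 CPM.

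CPM per kilobase (kb) of the deposited gene length allow the genes to be ranked within a group. In naive H9, ZNF560 led at 9.45 CPM per kb, ZNF528, ZNF595, ZNF501, ZNF528-AS1 and ZNF229 lay between 2.96 and 2.30, and ZNF667 was lowest at 1.26. In primed H1 controls ZNF595 led at 5.29 CPM per kb and ZNF560 was lowest at 0.320, and in naive H1 controls they again held both ends, at 9.48 and 0.772. Thus ZNF560 moved from the top of this order in naive H9 to the bottom in each H1 control state shown.

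Among 557 genes with a ZNF symbol, near-zero counts in primed H9 were rare for genes expressed in primed H1 controls. Of 368 ZNF genes with at least 5 CPM in primed H1 controls, 349 also had at least 5 CPM in primed H9. At most 1 count per library in primed H9 was seen for 6 of the 368, of which 5 are described here and the other is ZNF732 (1 count in primed H9, 17.1 CPM in primed H1 controls). The 5 were chosen for these counts, so their place here was fixed. The share over all genes is not given, so whether ZNF genes differ in this was not tested. ZNF732 is not among the chosen genes and was at 2.10 CPM in naive H9, below the lowest of them (ZNF667, 11.1 CPM). At a looser cut, 10 of the 368 were more than 10-fold lower in primed H9 than in primed H1 controls. These included ZNF542P (0.319 against 26.6 CPM), ZNF280D (0.319 against 13.0), ZNF829 (0.277 against 6.69) and ZNF880 (1.33 against 19.0).

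**Figure D2:**
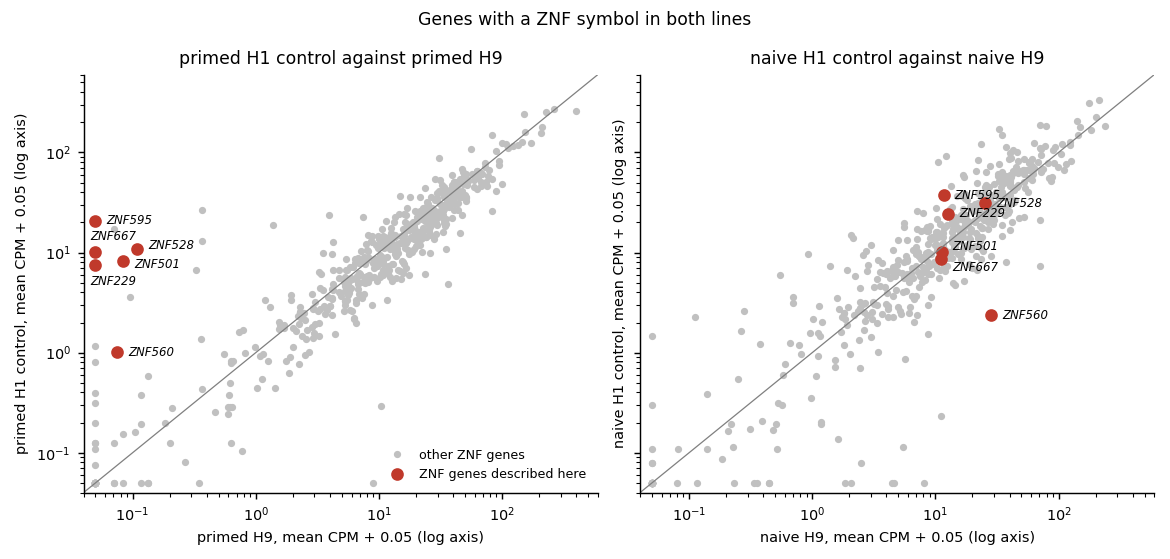
Mean level of each gene with a ZNF symbol in H1 controls (vertical) against H9 (horizontal), primed on the left and naive on the right, in CPM + 0.05 on log axes; each point is a gene, the 6 chosen ZNF genes are red and the line marks equal levels. In the primed panel the red points lie at the left edge, apart from the diagonal; in the naive panel ZNF560 is the only red point far from it, at 2.31 CPM in H1 against 28.3 in H9.

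The change from primed to naive state could be tested in H1, among nontargeting controls. Of the 7 genes 5 were higher in naive than in primed H1 cells and 0 were lower, while ZNF667 and ZNF501 did not pass the test. Across all 15874 genes tested 71.1% passed, 35% higher and 36.1% lower (edgeR quasi-likelihood test, 2-sided, Benjamini-Hochberg adjusted over all genes, threshold 0.05). The same 5 genes had all 3 naive libraries above all 3 primed ones, as had 36.6% of all genes. The median log2 change of the 7 was 1.19, beside 0.00 over all genes. ZNF528 and ZNF528-AS1 share their promoter stretch, so these are not 7 separate observations.

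ZNF528 was at 31.8, 28.8 and 32.4 CPM in naive H1 controls and at 10.6, 13.0 and 8.81 in primed ones. The groups were far apart, with a 2.87-fold higher level in naive cells (log2 change 1.52 ± 0.14 SE, adjusted p = 8.92e-16). ZNF528-AS1 was at 16.0, 17.8 and 16.4 CPM in naive and 6.02, 4.79 and 5.39 in primed cells. It rose 3.02-fold (log2 change 1.60 ± 0.18, adjusted p = 3.88e-12), close to the rise of its divergent neighbour. The antisense RNA made up 33.5 to 38.2% of the counts of the pair in naive H1 controls, 26.9 to 38.0% in primed H1 controls and 36.5 to 42.5% in naive H9, ranges that overlap.

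ZNF229 was at 24.4, 24.2 and 24.7 CPM in naive and at 6.92, 8.92 and 6.47 in primed H1 controls. This was the widest rise among the 7 on the fold scale, 3.30-fold (log2 change 1.72 ± 0.15, adjusted p = 7.73e-16). ZNF595 was at 40.9, 33.1 and 37.7 CPM in naive and at 19.6, 22.5 and 20.3 in primed cells, and it rose 1.78-fold (log2 change 0.83 ± 0.11, adjusted p = 8.89e-10) without overlap. ZNF560 was low in both states, at 1.72, 2.11 and 3.12 CPM in naive and 0.818, 0.533 and 1.53 in primed cells. Its rise was 2.28-fold (log2 change 1.19 ± 0.45, adjusted p = 0.0156), and the lowest naive library lay just above the highest primed one. The call was lost without naive replicate 3 (adjusted p = 0.106), primed replicate 1 (0.0774) or primed replicate 2 (0.0844).

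ZNF667 was at 7.82, 8.35 and 9.78 CPM in naive and at 11.3, 5.86 and 12.9 in primed H1 controls. The primed libraries enclose the naive ones, and the log2 difference was −0.27 ± 0.20 (95% interval −0.66 to 0.12, adjusted p = 0.215). Without primed replicate 2, the lowest library, it passed as lower in naive cells (log2 change −0.51, adjusted p = 0.0198). ZNF501 was at 10.6, 12.2 and 7.53 CPM in naive and at 8.996, 7.19 and 8.27 in primed cells, which overlap. Its log2 difference was 0.29 ± 0.19 (95% interval −0.09 to 0.66, adjusted p = 0.176), and it passed as higher without naive replicate 3 (0.46, adjusted p = 0.0342). Both intervals end below the changes of 1.52 and 1.72 found for ZNF528 and ZNF229.

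Markers of other cell types also differed between the H1 states. Of 10 trophoblast and amnion markers, 8 reached 1 CPM in naive H1 controls (summed level 107 to 115 CPM) and 3 in primed ones (19.96 to 24.9), with TFAP2A at 29.1 and ISL1 at 25.6 CPM in naive cells and the trophoblast markers CGA and CDX2 at 0.215 and 0.203 CPM. Of 8 mesendoderm markers 2 reached 1 CPM in naive cells, nearly all of it MIXL1 at 129 CPM (sum 131 to 152 against 4.67 to 5.33 in primed cells), and SOX17 was at 0 in both. Of 8 fibroblast markers, 5 reached 1 CPM in primed and 2 in naive cells (sums 690 to 705 and 302 to 314), with COL3A1 and LUM at 0 in primed cells. The largest in primed cells was THY1, also a marker of the primed state, at 410 against 0.506 CPM in naive cells. COL1A1 was higher in primed cells as well (122 against 6.74), while COL1A2 was lower there (152 against 300). The part of these markers of other cell types in the levels of the 7 genes was not tested.

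On day 2 of ectoderm differentiation, 5 of the 6 genes that could be tested were higher than in primed H1 controls and 0 were lower, beside 62.8% of 15409 genes called and 30.7% called higher. ZNF560 did not pass the filter on low counts, with 0.868, 0.294 and 0.999 CPM in ectoderm controls. The median log2 change was 0.53 over the 6 genes and 0.00 over all genes. Both comparisons use the same 3 primed control libraries, and the difference between the 2 changes was not tested.

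ZNF229 was at 11.4, 12.8 and 13.2 CPM in ectoderm controls, above every primed library (log2 change 0.76 ± 0.18, adjusted p = 0.00073). ZNF595 was at 28.5, 24.6 and 37.5 CPM and also cleared the primed libraries (0.54 ± 0.13, adjusted p = 0.000913). ZNF528-AS1 was at 8.40, 6.87 and 8.58 CPM, the other gene without overlap (0.53 ± 0.22, adjusted p = 0.0393). All libraries of one group above all of the other were seen for 32.7% of genes. ZNF667, at 12.6, 15.6 and 16.5 CPM, and ZNF501, at 8.54, 12.3 and 12.9 CPM, passed with libraries that overlap the primed ones (0.53 ± 0.20, adjusted p = 0.0196, and 0.46 ± 0.19, adjusted p = 0.0374). ZNF528, at 11.3, 16.2 and 14.0 CPM, missed the threshold (0.37 ± 0.18, adjusted p = 0.0687). With DESeq2 in place of edgeR, or without the filter on low counts, 3 genes passed in place of 5, as ZNF528-AS1 (adjusted p = 0.0595 and 0.0783) and ZNF501 (0.0659 and 0.0585) were lost. Leaving out primed replicate 2 alone took ZNF667 to 0.150, ZNF501 to 0.120 and ZNF528-AS1 to 0.109, and brought ZNF528 to 0.0301.

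The CARHSP1 knockdown in primed H1 cells left all 7 genes without a call. The edgeR test called 0 of 7, with 0 at an unadjusted p under 0.05 and 0 by DESeq2, beside 20.2% of 15642 genes called. ZNF528-AS1 had the largest difference in log2 terms among the 7, at 7.36, 7.25 and 6.06 CPM with the knockdown against 6.02, 4.79 and 5.39 CPM (0.32 ± 0.21, adjusted p = 0.286). Its libraries do not overlap, as was so in this direction for 17.7% of all genes. CARHSP1 encodes an RNA-binding protein with a cold shock domain. The 7 genes kept to means between 1.01 CPM for ZNF560 and 21.2 CPM for ZNF595 in the knockdown, beside 0.960 and 20.8 CPM in the control.

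In naive H1 cells labelled with the ZNF8 knockdown, ZNF595 was the only one of the 7 that passed, with 24.2% of 15323 genes called and 12.3% called lower. ZNF595 was at 29.8, 33.6 and 29.8 CPM against 40.9, 33.1 and 37.7 CPM in the control, and the libraries overlap (log2 change −0.28 ± 0.10, adjusted p = 0.0341). That call did not last under DESeq2 (adjusted p = 0.0576), without the low-count filter (0.0654), with all H1 groups in a single fit (0.128), nor on leaving out knockdown replicate 1 (0.184) or 3 (0.0821), or control replicate 1 (0.196) or 3 (0.0840). ZNF8 itself is a KRAB zinc finger gene. The other 6 genes had adjusted p above the threshold, with ZNF528 at 29.1 ± 2.20 against 31.0 ± 1.89 CPM and ZNF229 at 23.7 ± 1.55 against 24.4 ± 0.281 CPM. Summed naive markers were lower in the knockdown libraries, as given above, and the part of this in the value of ZNF595 was not tested.

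The ZIC2 knockdown in day 2 ectoderm went with lower levels of ZNF229 and ZNF595, 2 of the 7 genes, beside 28.1% of 15013 genes called and 12.8% called lower. ZIC2 encodes a zinc finger transcription factor of neural development. ZNF229 was at 5.90, 7.97 and 8.91 CPM with the knockdown against 11.4, 12.8 and 13.2 CPM in the control. No library overlapped, and it fell by 0.73 on the log2 scale (SE 0.20, adjusted p = 0.00848). ZNF595 was at 19.6, 22.2 and 19.0 CPM against 28.5, 24.6 and 37.5 CPM, again without overlap, and fell by 0.58 (SE 0.15, adjusted p = 0.00464). All knockdown libraries below all controls were seen for 20% of genes. The ZNF595 call rested on control replicate 3, the highest library, without which the log2 change was −0.38 (adjusted p = 0.0683). ZNF560 was at 0.936, 2.25 and 1.72 CPM against 0.868, 0.294 and 0.999 CPM, which overlap, and did not pass (log2 change 1.18 ± 0.55, adjusted p = 0.116). ZNF528, ZNF528-AS1, ZNF667 and ZNF501 did not pass either, with means of 14.9 against 13.8, 8.90 against 7.95, 14.7 against 14.9 and 9.82 against 11.2 CPM. Summed neural ectoderm markers were 877 to 972 CPM with the knockdown and 1220 to 1384 CPM in the control, and their part in these 2 values was not tested.

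**Figure D3:**
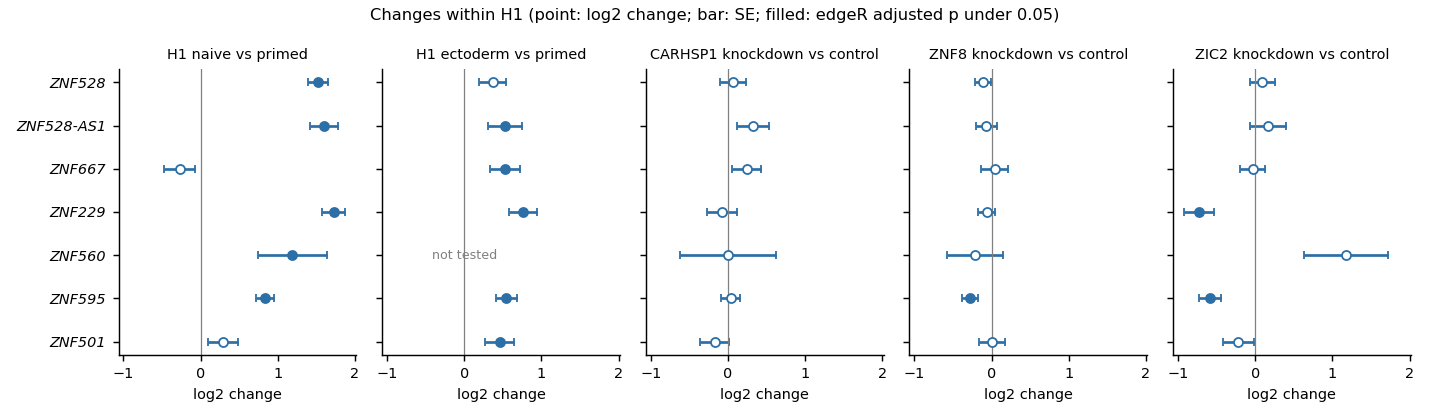
Log2 change of each of the 7 genes in the 5 comparisons within H1; points are the change, bars the SE, and filled points passed the edgeR test at an adjusted p under 0.05. Naive against primed holds the largest filled changes, up to 1.72 for ZNF229, and no point is filled for the CARHSP1 knockdown.

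Ordered by mean level over the 8 groups, all 7 genes had primed H9 last, and its libraries lay below those of the next group for each gene. For ZNF528 the order rose from primed H1 control, CARHSP1 knockdown, ectoderm control and ZIC2 knockdown, whose neighbours overlap, through naive H9, to the ZNF8 knockdown and naive H1 control, which overlap with each other. Naive H9 overlapped with neither side. ZNF528-AS1 followed the same order, but its primed H1 control (4.79 to 6.02 CPM) lay just below the CARHSP1 knockdown (6.06 to 7.36 CPM) without overlap, and naive H9, ZNF8 knockdown and naive H1 control all overlapped. ZNF229 had 3 tiers without overlap between them above primed H9, first both primed H1 groups and the ZIC2 knockdown, then ectoderm control and naive H9, then both naive H1 groups. In ZNF595, naive H9 was the next lowest group at 11.6 ± 0.584 CPM, clear of all others, followed by the ZIC2 knockdown and both primed H1 groups, and then by ectoderm control and both naive H1 groups. For ZNF667 and ZNF501 every neighbouring pair among the other 7 groups overlapped, while groups farther apart in the order could be clear of each other. ZNF667 was at 7.82 to 9.83 CPM in the naive H1 groups and at 12.6 to 16.5 CPM in the ectoderm groups, and ZNF501 was at 10.6 to 12.1 CPM in naive H9 and at most at 9.04 CPM in the primed H1 groups. For ZNF560 the 6 H1 groups formed a single overlapping run from 0.721 to 2.31 CPM, clear of naive H9 at 28.3 CPM.

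The 7 genes lay at 6 places in the genome (GRCh38, GENCODE 29). Besides the ZNF528 pair, chromosome 19 held ZNF667 at 56439325 to 56478065, ZNF229 at 44417519 to 44448578 and ZNF560 at 9466507 to 9498607, all on the minus strand. ZNF595 lies near the end of chromosome 4, at 53285 to 88211, and ZNF501 on chromosome 3, at 44729596 to 44737083, both on the plus strand. ZNF667 overlaps ZNF667-AS1 by 816 bases on the opposite strand, with exons in common ground, and whether counting used strand is not known, so reads of the 2 genes there cannot be told apart. ZNF229 overlaps AC245748.2 on the same strand, which was at 0 CPM in every group.

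Most of the genes next to the 7 had more than near-zero counts in primed H9. The 3 nearest genes with a symbol on either side gave 34 genes, of which 23 had at least 1 CPM in naive H9, and 3 of those 23 had at most 1 count per library in primed H9. Over all genes, 78 met both cuts, the 7 included, while 15761 genes were tested in H9. That is a smaller share than 3 of 23, though the 15761 were not cut at 1 CPM in naive H9. The 3 neighbours were ZNF667-AS1 (0 CPM in primed against 7.44 in naive H9), ZNF471 (0 against 5.80) and ZNF534 (0 against 5.16). ZNF667-AS1 overlaps ZNF667, ZNF471 lies 29.8 kb from it on the same side, and ZNF534 follows ZNF528. Of 21 neighbours with at least 1 CPM in primed H1 controls, 20 had at least 1 CPM in primed H9, and ZNF667-AS1 was the other. Levels still differed between the H9 states, as 11 of 23 neighbours tested were higher and 2 lower in naive H9, with a median log2 change of 0.44, beside 25.4% higher and 26.1% lower over all genes.

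The ZNF528 pair had mixed company. ZNF880, 3.05 kb from ZNF528-AS1, was at 1.33 CPM in primed and 25.3 in naive H9, and ZNF578 at 4.22 and 46.7, while ZNF610 was at 6.996 and 14.5 and ZNF480 at 32.4 in both. ZNF583, 3.29 kb from ZNF667, was low in both H9 states, at 1.53 and 2.00 CPM. KIAA1143, which lies 0.577 kb from ZNF501, was at 52.0 CPM in primed and 46.8 in naive H9, and ZNF502 on the other side was at 5.33 and 10.2. Next to ZNF595, ZNF718 was at 10.5 and 10.01 CPM, next to ZNF229, ZNF285 was at 6.46 and 8.71 and ZNF180 at 13.5 and 16.6, and next to ZNF560, ZNF266 was at 29.7 and 41.8 and ZNF426 at 39.4 and 35.8. So near-zero counts were limited to the single gene at 4 of the 6 places, among these nearest neighbours of at least 1 CPM in naive H9. Beside ZNF595, only ZNF718 and ZNF876P (4.69 CPM in naive H9) met that minimum. Genes farther away were not looked at, so a wider stretch with near-zero counts could be missed. In naive against primed H1 controls, 16 of 23 neighbours tested were higher and 3 lower, with a median log2 change of 0.70, beside 35% higher and 36.1% lower over all genes.

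**Figure D4:**
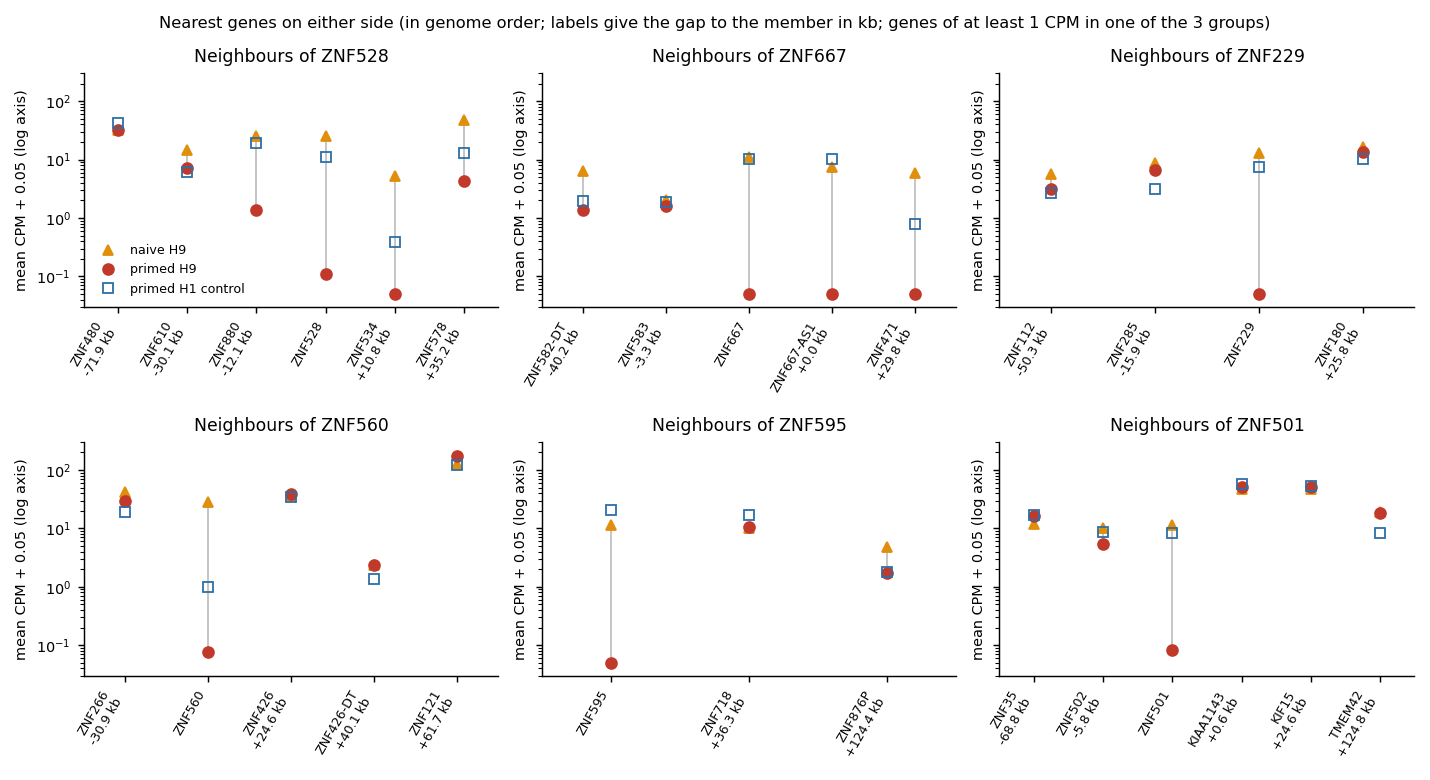
Mean level of each chosen gene except ZNF528-AS1, which is not drawn, and of its nearest named neighbours with at least 1 CPM in any of the 3 groups. Genes stand in genome order, with the gap in kb under each name and CPM + 0.05 on a log axis. Triangles are naive H9, circles primed H9 and squares primed H1 controls. Circles drop to the bottom at each chosen gene drawn and, among the neighbours drawn, at ZNF534, ZNF667-AS1 and ZNF471. Those of ZNF880 (1.33 CPM in primed against 25.3 in naive H9) and ZNF578 (4.22 against 46.7) also lie well below their triangles.

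The genes whose level most resembled the mean of the 7, by Pearson r of log2(CPM + 0.5) over the 24 libraries among 17635 other genes, were ZNF880 (r = 0.985), ENPP2, which encodes autotaxin (0.963), CCDC169 (0.957), ZNF667-AS1 (0.949) and ZNF300 (0.948). After ZNF880 and ZNF300, the next ZNF gene was ZNF829 (0.930). These values are a description, the drop in the 3 primed H9 libraries is part of each of them, and libraries of a group share their line and state. ZNF300, a KRAB zinc finger gene, fell to 3.89 CPM in primed H9 from 27.2 in naive H9 and stayed at 23.4 to 33.3 CPM in all 6 H1 groups. CCDC169 was at 0.411 CPM in primed and 46.6 in naive H9.

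Among the 7 genes, r over all 24 libraries ran from 0.335 to 0.985 over the 21 pairs, with a median of 0.931. Within the 18 H1 libraries it ran from −0.466 to 0.909 with a median of 0.486. The closest H1 pairs were ZNF528 with ZNF229 (0.909) and ZNF528 with ZNF528-AS1 (0.887), and ZNF667 went against ZNF528 (−0.466). The values over all 24 libraries include the 3 primed H9 libraries, where the choice of genes sets all 7 near 0, so they are not comparable with those within H1.

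Other genes with a ZNF symbol also tended to be higher in naive than in primed H1 controls. Of 470 tested, 248 (52.8%) were higher and 79 (16.8%) lower, with a median log2 change of 0.38, beside 35% higher and 36.1% lower over all genes. In ectoderm 232 of 465 were higher and 49 lower (median 0.39), beside 30.7% and 32.1% of all genes. In the knockdowns the counts were 19 higher and 30 lower of 463 for CARHSP1 (median −0.03; all genes 10.3% and 9.87%). They were 16 and 80 of 472 for ZNF8 (−0.12; 11.9% and 12.3%) and 18 and 67 of 466 for ZIC2 (−0.14; 15.3% and 12.8%). For H9, 127 of 476 were higher and 92 lower in naive cells, with a median of 0.01, beside 25.4% and 26.1% of all genes. Whether the lines differ in this was not tested.

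Genes of the KAP1 and HUSH silencing machinery, through which KRAB zinc finger proteins act, were present in all groups. All 19 listed genes had more than 1 count per library in primed H9, and TRIM28 was at 786 CPM there and at 812 CPM in primed H1 controls. In naive against primed H1 controls 7 of 19 were higher and 8 lower, with a median log2 change of −0.01. MPHOSPH8, a HUSH subunit, rose from 51.7 to 135 CPM (log2 change 1.36 ± 0.07). The chromatin remodeller SMARCAD1 (0.94) and the HUSH subunit PPHLN1 (0.76) were also higher, and the remodeller ATRX was lower (−0.63).

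Of 18 DNA methylation genes tested in the same comparison, 6 were higher and 10 lower in naive cells, with a median of −0.29. DNMT3L, the cofactor of the de novo methyltransferases, was higher by 8.31 on the log2 scale and the demethylase gene TET2 by 4.04, while DNMT3B fell by 1.09 and HELLS, a remodeller needed for DNA methylation, fell by 1.76. In primed H9, DNMT3B was at 2229 CPM, close to the 2188 CPM of primed H1 controls, and TET2 was at 6.76 against 1.68 CPM. In naive H9, TET2 was at 2.60 CPM, below its primed H9 level, the reverse of its direction in H1. No value here measures DNA methylation at the 7 genes.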

How the data were processed

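Polyadenylated RNA was measured in 24 libraries, grouped by the sample labels. Per the labels' protocols, libraries were of a stranded mRNA type, made from column-purified RNA. HISAT2 and GRCh38 were used, per the submitters' processing notes, with versions, counting tool, annotation and strand setting not given in the sources used here. Each value is a raw read count of a gene, as deposited by the authors in 2 tables, 1 per cell line, with a gene length in bases in an "other" column. The H1 table holds 27 further columns that match no sample described here and were not used. Positions were taken from GENCODE 29 (58453 of 60671 identifiers found), and symbols from the gene name table given (60401 found).

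From the deposited counts, each comparison was fitted on its 2 groups with edgeR 4.0.16 (filterByExpr, TMM, quasi-likelihood F test, 2-sided, Benjamini-Hochberg over all genes tested, threshold 0.05) in R 4.3.3. The SE of a log2 change was derived from the F statistic. Levels are CPM after joint TMM scaling of the 24 libraries. Alternatives were DESeq2 1.42.0, no low-count filter, all H1 groups in a single fit, a replicate block, and leaving out each library. The scripts were tested on simulated counts. The biological coefficient of variation lay between 6.13 and 9.67%, and total counts between 6756704 and 20773963. Replicate libraries differed by more than sampling noise (chi-square per degree of freedom 2.44 to 9.16, over genes of 20 or more counts per pair). This does not show that they were separate cultures. Each library was counted as 1 sample. Groups share replicate numbers, and deviations of libraries with the same number correlated at −0.0466 to 0.0563 in H1 and −0.158 to 0.192 in H9. Each CARHSP1 knockdown library correlated best with the control of its own number (0.0200 to 0.0337), which did not hold for every library of the other comparisons. Whether the numbers pair the libraries is therefore not settled, and the main fits used no replicate block.

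Folds against 0 counts used a group floor of 3 counts, and intervals of count ratios are exact and cover counting error only. Promoter windows came from RefSeq (GRCh38.p14). The 7 genes, the lists and the tests were chosen with earlier results of these data known. The text names all 7 genes, the 3 ZNF genes with the fewest primed H9 counts outside them (ties taken by naive H9 level, a step added after seeing the data), the 5 genes and 3 ZNF genes of highest likeness, up to 4 genes per list by adjusted p in naive against primed H1, and the nearest neighbours; genes of the search by primed H9 counts and others named for a single value were chosen after their values were seen.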

Additional observations from a re-analysis of the deposited data

How the results depend on the processing

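The 5 naive against primed calls in H1 held under every alternative to the fit (DESeq2, no low-count filter, all H1 groups in a single fit, replicate block), and 4 to 5 held when 1 library was left out. In ectoderm 3 genes were called with DESeq2 and 3 without the low-count filter, in place of 5, and 2 to 5 with a library left out. For the ZNF8 knockdown 0 were called with DESeq2, 0 without the filter and 0 with all H1 groups in a single fit, and 0 to 1 with a library left out. The ZIC2 knockdown gave 1 to 2 calls among the 7 with a library left out. The number of all genes called for the CARHSP1 knockdown ran from 2045 to 3410 with a library left out, against 3152, and was 2045 without control replicate 1 and 2096 without knockdown replicate 2. With the replicate block, 5, 4, 0, 1 and 2 of the 7 genes were called for naive, ectoderm, CARHSP1, ZNF8 and ZIC2, and ZNF501 was lost in ectoderm (adjusted p = 0.0558); over all genes the block gave 11073, 9493, 3404, 3631 and 4460 calls, and 7803 for H9. Changes near 0 turned sign with a library left out. On the log2 scale, the range for the CARHSP1 knockdown was −0.10 to 0.20 for ZNF528, −0.21 to 0.054 for ZNF229, −0.23 to 0.49 for ZNF560 and −0.066 to 0.13 for ZNF595. For the ZNF8 knockdown it was −0.20 to 0.070 for ZNF528-AS1, −0.026 to 0.14 for ZNF667, −0.44 to 0.045 for ZNF560 and −0.15 to 0.17 for ZNF501, and for the ZIC2 knockdown −0.014 to 0.22 for ZNF528 and −0.13 to 0.048 for ZNF667. Of 405 single-gene values under alternatives, 356 kept their direction and side of the threshold, 27 lost the threshold, 5 gained it and 17 turned sign; the cause was not tested. With a pseudocount of 1 in place of 0.5, the same 5 genes were most like the mean of the 7 (ZNF880 r = 0.982). Depth limits ZNF560 in H1, at means of 0.721 to 2.31 CPM, and every primed H9 level.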

Other observations

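Some genes outside the 7 shared their absence from primed H9 and their presence in naive H9 but differed from them in H1. They were named after their values were seen, and none was tested. HORMAD1 was at 16.5 CPM in naive H9, with 2 counts over the primed H9 libraries, and was listed at 0 CPM in naive and primed H1 controls. PAX6, a transcription factor gene of eye and neural development, was at 8.90 CPM in naive H9, with 1 count in primed H9, beside 0.490 CPM in naive H1 controls and 2.25 CPM in ectoderm controls. GAD2, which encodes an enzyme of GABA synthesis, was at 6.54 CPM in naive H9 and 11.1 CPM in naive H1 controls, and TWIST1, a transcription factor gene of mesenchyme, was at 8.50 and 4.67 CPM. In primed H1 controls GAD2 was at 0.988 and TWIST1 at 0.0847 CPM, so these genes were low in the primed state of both lines, unlike 6 of the 7 zinc finger locus genes.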
